A study of Mus musculus with 33 samples.

Results

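The 10 genes described here encode the parts of the MHC class I antigen presentation route, from the immunoproteasome to the cell surface. They are the heavy chain genes H2-K1, H2-D1 and H2-Q6, the light chain gene B2m, the peptide transporter genes Tap1 and Tap2, the loading factor gene Tapbp, and the inducible proteasome subunit genes Psmb8, Psmb9 and Psmb10. Members were taken by gene symbol, and the brightest of a gene's probes over the 33 arrays stood for it. All 10 were among the 9613 genes tested, of 19057 genes with a named probe, and each of their brightest probes was detected on 33 of 33 arrays. The samples were interscapular brown fat, a heat-producing depot, of C57BL/6J mice read on Illumina bead arrays. The high-fat diet was sampled at weeks 2, 4, 8, 20 and 24 of feeding and the normal diet at those weeks and at week 0, giving 11 groups with 3 arrays each. The high-fat food was the AIN-76 diet of the normal groups with 39.2 kcal% of its energy as fat, and held 20% fat and 1% cholesterol. Every mouse was kept alone at 24 °C under 12-hour light and dark periods, and the age label reads 7 weeks for all of them. Diet and week are the only labelled differences between groups. The labels number replicates without naming animals, so p-values reflect the spread between these samples, which may be technical.

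Class I molecules carry short peptides to the surface of nearly all nucleated cells, where CD8 T cells and natural killer cells inspect them. The proteasome cuts proteins into peptides, and under interferon gamma its constitutive catalytic subunits are exchanged for the inducible ones to form the immunoproteasome. Tap1 and Tap2 proteins together pump peptides into the endoplasmic reticulum, and tapasin, the product of Tapbp, holds an empty class I molecule beside the pump until a peptide fits. Heavy chains reach the surface only when paired with beta-2 microglobulin.

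Of the 10 members, 8 lie on chromosome 17, B2m lies on chromosome 2 and Psmb10 on chromosome 8 in the RefSeq annotation of GRCm38.p6. Psmb9, Tap1, Psmb8 and Tap2 stand next to each other in that order inside the MHC region, between class II genes. The start region of a gene, 250 bases before to 50 bases after the RefSeq start, was found for 9 of the 10 members by symbol, and Tap2 is named only. Start regions of the 3 heavy chain genes are shown because they share a block of letters, with capitals marking GGGATTCCC, a kappaB motif, and a match to GTTTCNCTT, a loose form of the interferon-stimulated response element. Both patterns were added to the search after the sequences had been seen, and both strands were searched.
H2-K1, chr17:34000298-34000597, minus strand: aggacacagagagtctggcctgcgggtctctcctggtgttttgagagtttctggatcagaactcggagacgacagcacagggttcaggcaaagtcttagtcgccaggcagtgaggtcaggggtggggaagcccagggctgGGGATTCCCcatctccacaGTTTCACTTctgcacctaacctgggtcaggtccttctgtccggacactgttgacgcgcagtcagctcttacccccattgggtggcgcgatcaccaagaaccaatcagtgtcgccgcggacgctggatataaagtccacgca
H2-D1, chr17:35262844-35263143, plus strand: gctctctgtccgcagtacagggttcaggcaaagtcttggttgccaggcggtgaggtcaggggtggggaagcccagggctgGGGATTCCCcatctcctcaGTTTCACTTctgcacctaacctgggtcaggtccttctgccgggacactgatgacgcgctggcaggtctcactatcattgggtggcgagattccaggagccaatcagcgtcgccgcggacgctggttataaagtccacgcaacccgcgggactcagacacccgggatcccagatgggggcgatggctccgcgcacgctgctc
H2-Q6, chr17:35424600-35424899, plus strand: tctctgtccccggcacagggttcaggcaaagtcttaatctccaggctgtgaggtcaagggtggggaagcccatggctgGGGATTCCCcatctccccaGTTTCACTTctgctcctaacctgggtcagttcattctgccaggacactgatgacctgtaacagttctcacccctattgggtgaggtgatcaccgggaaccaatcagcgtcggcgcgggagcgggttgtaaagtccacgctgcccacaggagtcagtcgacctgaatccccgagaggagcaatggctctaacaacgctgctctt
The kappaB letters occur in all 3 of these windows and in 0.37% of 27025 RefSeq windows of the same length. The loose response element likewise occurs in all 3, and in 1.78% of all windows. The H2-D1 and H2-Q6 windows are 79.9% identical over an alignment of 303 positions. Counted from the start of the gene, the kappaB letters begin at -110 in H2-K1, -170 in H2-D1 and -172 in H2-Q6.

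B2m and Psmb8 are shown for the motif matches of a fixed list, marked in capitals. B2m holds the interferon-stimulated response element, 2 copies of TTTC parted by any 2 bases, read on the other strand as GAAACTGAAA, and Psmb8 holds TTCNNNGAA, the gamma-activated site to which STAT factors bind, as TTCCCAGAA.
B2m, chr2:122147437-122147736, plus strand: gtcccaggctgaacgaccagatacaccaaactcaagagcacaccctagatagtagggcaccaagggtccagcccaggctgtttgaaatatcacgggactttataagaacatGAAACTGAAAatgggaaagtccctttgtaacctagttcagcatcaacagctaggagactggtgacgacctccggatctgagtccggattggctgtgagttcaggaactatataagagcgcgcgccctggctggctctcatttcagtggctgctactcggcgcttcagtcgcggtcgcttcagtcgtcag
Psmb8, chr17:34197945-34198244, plus strand: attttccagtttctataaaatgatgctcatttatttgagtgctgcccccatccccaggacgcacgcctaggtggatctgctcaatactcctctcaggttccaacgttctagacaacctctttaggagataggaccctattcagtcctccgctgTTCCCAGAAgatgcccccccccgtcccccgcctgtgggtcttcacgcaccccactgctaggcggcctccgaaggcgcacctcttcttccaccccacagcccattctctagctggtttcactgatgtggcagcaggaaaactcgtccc
The response element occurs in 3.49% of all windows and in 1 of the 9 member windows, and the gamma-activated site in 8.47% of all windows and in 1 of 9. Tap1 and Psmb9 point away from each other, and their windows share 275 bases with the same letters (chr17:34187306-34187580), so the Tap1 window below also serves as most of the Psmb9 one. It holds none of the 4 patterns capitalised above.
Tap1, chr17:34187306-34187605, plus strand: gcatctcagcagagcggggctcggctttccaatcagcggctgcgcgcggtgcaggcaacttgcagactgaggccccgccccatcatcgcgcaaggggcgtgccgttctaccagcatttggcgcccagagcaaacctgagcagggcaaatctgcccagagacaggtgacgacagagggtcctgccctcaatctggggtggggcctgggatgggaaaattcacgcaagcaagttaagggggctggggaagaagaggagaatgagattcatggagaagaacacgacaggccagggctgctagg
CCAAT, a common promoter motif also added to the search after the sequences had been seen and left in lower case here, was found in 7 of 9 member windows and in 37.9% of all windows. A match describes letters in a window and is no measurement of a bound factor.

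Array medians ran from 129 to 183 intensity units, 29.5% to 33.7% of probes were detected on an array, and 3 arrays a group limit the precision. All 8 brown adipocyte markers were detected in every group, and group means of Ucp1, the uncoupling protein of brown fat, ran from 15.19 to 15.86 on the log2 intensity scale. Arrays of week 24 stood apart on the first principal component, at scores of 33.5 to 46.6 against -16.7 to 3.85 for the other weeks, so the main counts, the subunit ratios and the later minus earlier differences are also given without it. The labels name no batch, so for week 24 a change with feeding time and a batch of arrays cannot be told apart. Values below are log2 normalized intensities of 1 probe and are compared between groups, never between genes.

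Each of the 10 members except Tapbp was higher on the high-fat diet when the within-week difference was averaged over the 5 weeks. That is 9 of 10 members past an adjusted p of 0.05 and 0 lower, against 27.1% of all tested genes past it in either direction and 15.4% higher. The 9 differences ran from 0.20 to 0.53 log2 units, and the median of all 10 members was 0.35 against 0.002 for all genes. In bulk tissue, more cells that express a gene and more RNA per cell cannot be told apart. Without week 24 all 10 passed as higher, against 8.41% of all genes higher and 6.89% lower.

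**Figure D1:**
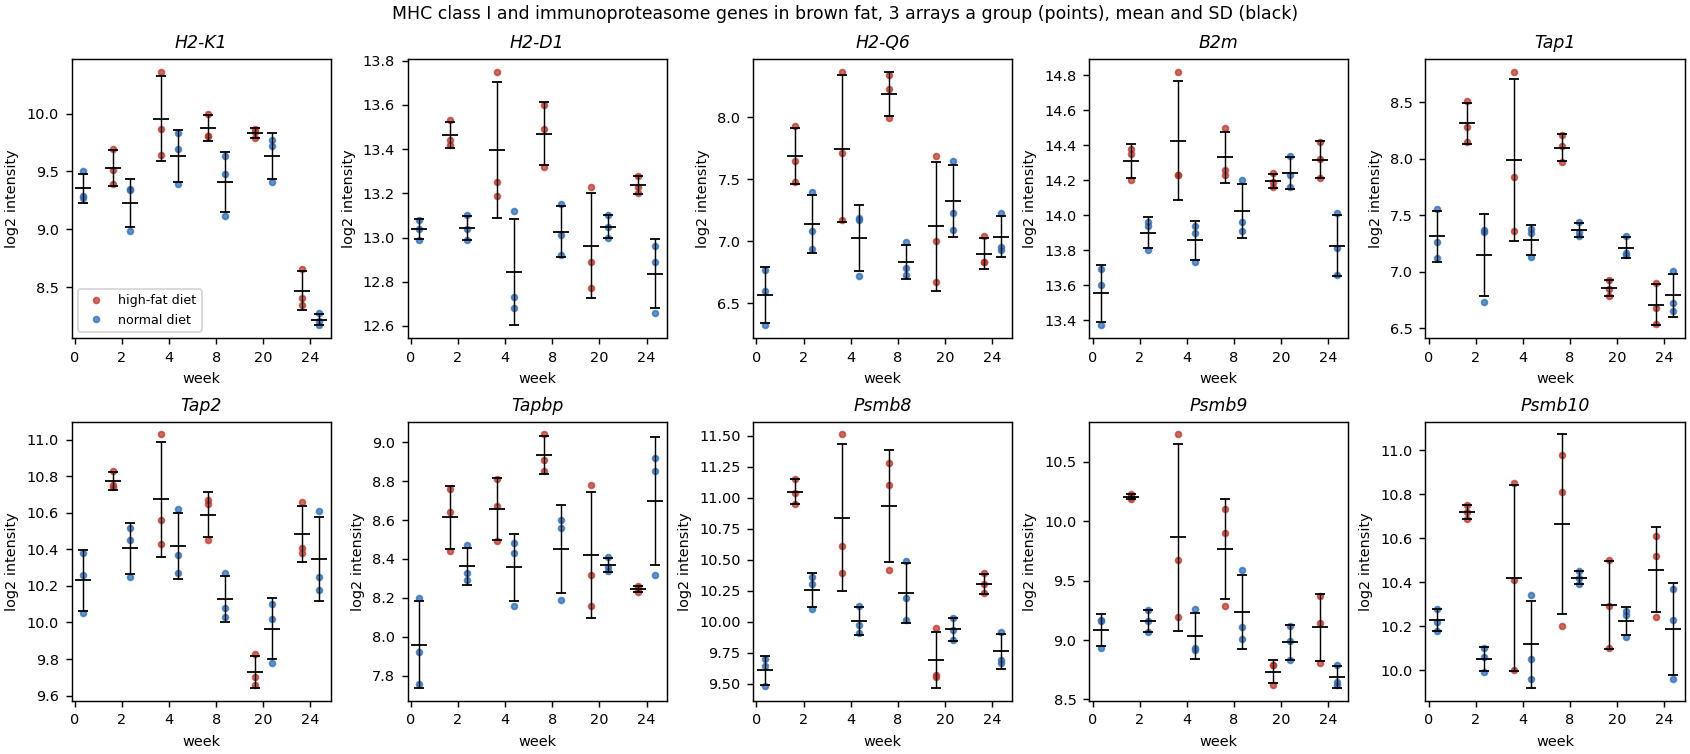
Log2 intensity of each gene's brightest probe on every array, by week, with high-fat diet in red left of normal diet in blue and bars for mean and SD (n = 3). In all 10 panels the highest group is a high-fat one of week 2, 4 or 8.

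Among the heavy chains, H2-D1, a classical class I gene, was 13.44, 13.42 and 13.53 on the high-fat diet at week 2, against 12.99, 13.04 and 13.10 on normal diet. At week 8 it was 13.32, 13.60 and 13.49 on the high-fat diet and 13.15, 12.92 and 13.01 on normal diet. At weeks 2, 4, 8 and 24 all 3 high-fat arrays stood above all 3 normal diet arrays, and at week 20 the groups overlapped. Its mean difference over the 5 weeks was 0.35 (SE 0.058, adjusted p = 7.09e-05), a 1.27-fold rise. The other classical gene, H2-K1, rose by 0.31 (SE 0.069, adjusted p = 0.00154), with high-fat arrays above normal diet arrays at weeks 2, 8, 20 and 24. H2-K1 passed the test at none of the 5 weeks taken alone, the closest being week 8 with a difference of 0.46 (SE 0.15, adjusted p = 0.108).

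H2-Q6 belongs to the Qa-2 group of nonclassical class I genes and had the widest diet gap of the heavy chains. At week 8 it read 7.99, 8.34 and 8.23 on the high-fat diet, against 6.99, 6.73 and 6.78 on normal diet, a 2.55-fold difference (1.35 log2 units, SE 0.24, adjusted p = 0.00565). No high-fat array of that week came within the normal diet range. Before background correction and normalization H2-Q6 was a low signal at week 8, at 376, 353 and 301 on the high-fat diet and 294, 263 and 256 on normal diet. The fold holds for the corrected values. By week 24 H2-Q6 read 6.83, 6.83 and 7.04 on the high-fat diet and 7.23, 6.93 and 6.95 on normal diet, and the groups overlapped. Averaged over the 5 weeks its difference was 0.45 (SE 0.11, adjusted p = 0.00194).

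B2m, the light chain needed by every class I heavy chain, was 14.35, 14.20 and 14.38 on the high-fat diet at week 2, against 13.94, 13.80 and 13.96 on normal diet. At week 24 it was 14.32, 14.21 and 14.42 on the high-fat diet and 13.81, 14.01 and 13.66 on normal diet. The groups did not overlap at weeks 2, 4, 8 and 24, the same weeks as for H2-D1, and did overlap at week 20. Before background correction and normalization the week 8 order was the reverse. The B2m intensities were then 15234, 14113 and 13990 on the high-fat diet and 20960, 16672 and 15578 on normal diet. The week 8 separation therefore holds for the normalized values. B2m passed the test at week 4 (0.57, SE 0.13, adjusted p = 0.0197) and week 24 (0.49, SE 0.13, adjusted p = 0.00702), and on average (0.35, SE 0.057, adjusted p = 5.91e-05).

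Tap1, which encodes a subunit of the peptide pump, showed the largest single-week gap of the transport genes. At week 2 its high-fat arrays read 8.28, 8.51 and 8.15, against 7.37, 6.73 and 7.35 on normal diet, a 2.23-fold difference (1.16 log2 units, SE 0.21, adjusted p = 0.00344). Before background correction and normalization these arrays were also low, at 402, 482 and 424 on the high-fat diet and 293, 229 and 279 on normal diet. At week 20 the order was turned, with 6.93, 6.85 and 6.79 on the high-fat diet and 7.32, 7.15 and 7.17 on normal diet. That difference of -0.36 (SE 0.21) did not pass the test (adjusted p = 0.369), although no array of one diet fell within the range of the other. The average over the 5 weeks was 0.43 (SE 0.095, adjusted p = 0.00134).

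Tap2, the other subunit of the pump, differed less. Its average was 0.20 (SE 0.062, adjusted p = 0.0183), and high-fat arrays lay above normal diet arrays at weeks 2 and 8 only. At week 8 Tap2 read 10.67, 10.65 and 10.45 on the high-fat diet, against 10.03, 10.08 and 10.27 on normal diet. Tapbp, the tapasin gene, averaged 0.13 (SE 0.069) and did not pass (adjusted p = 0.179). Its high-fat arrays were above the normal diet arrays at week 8 (8.85, 8.91 and 9.04 against 8.60, 8.19 and 8.56) and below them at week 24 (8.23, 8.26 and 8.25 against 8.92, 8.85 and 8.32). The week 24 fall of 0.45 (SE 0.15) passed the test (adjusted p = 0.04).

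The 3 immunoproteasome genes were all higher at week 2, with no overlap between diets. Psmb8, which encodes the chymotrypsin-like inducible subunit, was 11.15, 10.95 and 11.04 on the high-fat diet, against 10.36, 10.10 and 10.30 on normal diet (difference 0.80, SE 0.20, adjusted p = 0.0381). Psmb9 was 10.23, 10.19 and 10.20 on the high-fat diet, against 9.25, 9.07 and 9.16 on normal diet (1.04, SE 0.24, adjusted p = 0.0212). Psmb10 was 10.75, 10.72 and 10.69 on the high-fat diet, against 10.10, 9.99 and 10.06 on normal diet (0.67, SE 0.17, adjusted p = 0.0375). For each of these genes the lowest high-fat array exceeded the highest normal diet array. At week 20 Psmb8 read 9.57, 9.95 and 9.55 on the high-fat diet and 10.03, 9.93 and 9.85 on normal diet. Psmb9 then read 8.62, 8.79 and 8.79 on the high-fat diet and 9.12, 8.99 and 8.83 on normal diet, the high-fat arrays now being the lower ones. Neither week 20 difference passed the test (-0.25 for each gene, adjusted p = 0.544 for Psmb8 and 0.623 for Psmb9).

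The number of members that passed changed with the week. At week 2 it was 4 of 10, all higher (Tap1, Psmb9, Psmb8 and Psmb10), against 1.9% of all genes in either direction and 1.13% higher. Week 4 gave 3 of 10, all higher (H2-D1, B2m and Psmb8), against 1.2% of all genes in either direction and 0.728% higher. Week 8 gave 1 of 10, H2-Q6, higher, against 2.1% in either direction and 0.926% higher. At week 20 the count was 0 of 10 with limma, against 4.67% of all genes, 0 members had an unadjusted p under 0.05, and each of the other settings run at that week also gave 0. At week 24 it was 3 of 10, with H2-D1 and B2m higher and Tapbp lower, against 20.3% of all genes in either direction, 12.7% higher and 7.65% lower. Medians of the member differences were 0.48, 0.56, 0.47, -0.15 and 0.26 at weeks 2, 4, 8, 20 and 24, and the medians of all genes stayed within 0.02 of 0.

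All 10 differences were above 0 at each of weeks 2, 4 and 8, as was true of 19.1% of tested genes. Only 3 of 10 were above 0 at week 20, and 7 of 10 at week 24. The week 8 part depended on how the arrays were scaled. Under a median shift B2m (-0.0499) and Psmb10 (-0.121) were below 0 at week 8, where the median of all genes was -0.31. All 3 high-fat arrays exceeded all 3 normal diet arrays for 9 of 10 members at week 2 (12.2% of genes), 4 at week 4 (12% of genes) and 7 at week 8 (7.76% of genes). At week 20 this held for 1 member (14.2% of genes) and the reverse for 2 (10.2% of genes), and at week 24 for 5 (20.5% of genes) with the reverse for 1 (17% of genes). Of the 7 members apart at week 8, only H2-Q6 was also apart in that direction before background correction and normalization. In those intensities H2-K1, H2-D1, Tap1, Tap2 and Tapbp overlapped between diets at week 8 and B2m was reversed. For each member the group with the highest mean was a high-fat group of week 2 (5 members), week 4 (2 members) or week 8 (3 members). Going down the order of the 11 group means, 94 of 100 neighbouring pairs overlapped in their arrays, so the fine order of groups is not resolved.

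**Figure D2:**
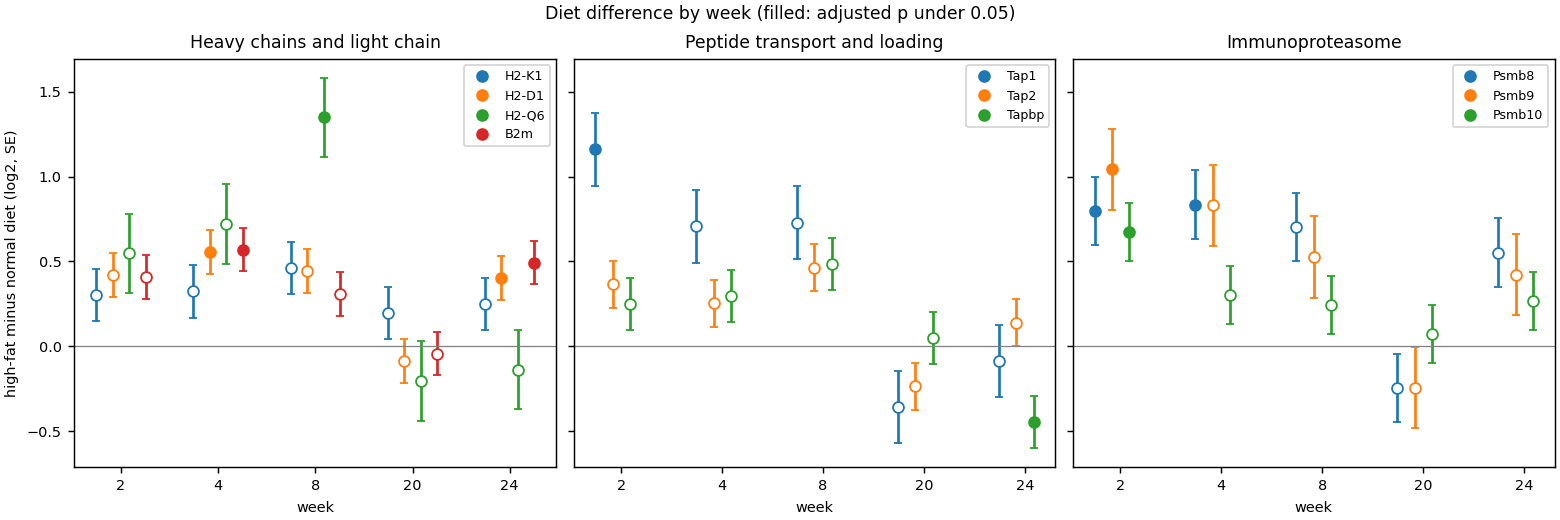
High-fat minus normal diet difference in log2 intensity by week, with bars for the standard error and filled points where the adjusted p was under 0.05. All 10 points of weeks 2, 4 and 8 are above 0, and 7 of 10 are below 0 at week 20.

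The week 4 count rested on single arrays. High-fat replicate 2 of that week was the highest of its group for all 10 members, for example 11.51 for Psmb8 against 10.61 and 10.39 in the other high-fat arrays of week 4, and 8.77 for Tap1 against 7.84 and 7.36. Macrophage markers were also highest on that array, with a mean of 8.40 against 7.97 and 8.01, and their part in the result was not tested. Without it 0 members passed at week 4 and 9 on average. The week 4 count was likewise 0 without normal diet replicate 2 or without replicate 3 of that week, and 5 without high-fat replicate 3. Without that same high-fat replicate 2 of week 4, 6 members passed at week 2 and 5 at week 8. The week 2 count of 4 fell to 2 without normal diet replicate 1 of week 2, and to 1 when any other array of that week was left out. The week 8 count was 3 without high-fat replicate 3 of week 4, and 2 without high-fat replicate 1 or 3 of week 8 or high-fat replicate 2 of week 20. At week 24 it was 1 without any one of normal diet replicate 2 and the 3 high-fat arrays. Leaving out an array also changes the calls of other genes. The shares of all genes in these fits are not given here, so the counts are not read as particular to the members.

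Whether the diet difference itself changed over time was tested as the mean difference of weeks 20 and 24 minus that of weeks 2 and 4. It was below 0 for all 10 members and passed for 3 of 10, against 4.99% of all genes in either direction and 1.54% below 0. These were Tap1 (-1.16, SE 0.21, adjusted p = 0.00175), Psmb9 (-0.85, SE 0.24, adjusted p = 0.0393) and H2-Q6 (-0.80, SE 0.24, adjusted p = 0.0454). Over the members the median was -0.41, and over all genes 0.02. Without week 24 the later part was week 20 alone, which is another quantity, on fewer arrays. The values were then -1.29 for Tap1 (adjusted p = 0.0629), -1.18 for Psmb9 (adjusted p = 0.112) and -0.84 for H2-Q6 (adjusted p = 0.276). Their sizes are not to be set beside those with week 24. The count was 1 without normal diet replicate 2 or high-fat replicate 1 or 2 of week 2, normal diet replicate 2 or 3 of week 4, or normal diet replicate 1 or 2 or high-fat replicate 1 or 3 of week 20. It was also 1 without replicate 1 or 2 of either diet of week 24, and 5 without high-fat replicate 2 of week 20 or without normal diet replicate 3 of week 24.

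A test of any diet by week interaction passed for 3 of 10 members, against 6.38% of all genes: Tap1 (adjusted p = 0.00588), H2-Q6 (adjusted p = 0.0117) and Tapbp (adjusted p = 0.0459). Without week 24 none passed, with adjusted p of 0.167 for Tap1, 0.229 for H2-Q6 and 0.673 for Tapbp. Leaving out high-fat replicate 2 of week 20 raised the count to 5.

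Within the high-fat diet, levels differed between weeks for 8 of 10 members (64.4% of all genes), the exceptions being B2m and Psmb10. Within normal diet, levels differed between weeks for 5 of 10 (66.6% of all genes), namely H2-K1, B2m, Tap2, Tapbp and Psmb8. Without week 24 the count was 6 on the high-fat diet and 2 on normal diet. The shares of all genes for these counts are not given here, so they are not read as particular to the members. The normal diet count was 3 without replicate 3 of week 0 or without replicate 1 or 3 of week 2. On the high-fat diet 5 of 10 members differed between weeks 2 and 24, about the share of all genes that did (50.9% in either direction). All 5 were lower at week 24: Tap1 (-1.60), Psmb9 (-1.10), H2-K1 (-1.06), H2-Q6 (-0.78) and Psmb8 (-0.74). On normal diet H2-K1 (-1.13) and Tap1 (-0.52) were lower and Tapbp (0.73) was higher at week 24 than at week 0, against 48.3% of all genes changed. The H2-K1 falls were of the brighter probe and of week 24. With week 20 in place of week 24 the H2-K1 difference was 0.304 on the high-fat diet and 0.283 on normal diet, and its second probe was 0.16 higher and 0.10 higher at week 24 in these comparisons, without passing. Tap1 read 6.90, 6.54 and 6.68 at week 24 on the high-fat diet, against 8.28, 8.51 and 8.15 at week 2.

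Immunoproteasome assembly exchanges Psmb5 for Psmb8, Psmb6 for Psmb9 and Psmb7 for Psmb10, so each inducible gene was also read against its constitutive partner on the same array. The log2 ratio of a pair of probes has no absolute meaning, and only its difference between diets is given. Psmb8 over Psmb5 was 0.65, 0.45 and 0.70 on the high-fat diet at week 2, against -0.28, -0.41 and -0.24 on normal diet. At week 24 it was -0.69, -0.82 and -0.79 on the high-fat diet and -1.53, -1.60 and -1.71 on normal diet. The diets did not overlap in this ratio at weeks 2, 4, 8 and 24, and did at week 20.

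Averaged over the 5 weeks, Psmb8 over Psmb5 was higher by 0.76 on the high-fat diet (exact permutation of diet labels within weeks, 3200000 assignments, two-sided adjusted p = 9.375e-06 over the 3 ratios). Psmb9 over Psmb6 was higher by 0.62 (exact permutation, adjusted p = 6.9375e-05) and Psmb10 over Psmb7 by 0.40 (exact permutation, adjusted p = 9.5e-05). Without week 24 the differences were 0.74, 0.66 and 0.45 for the Psmb8, Psmb9 and Psmb10 ratios (exact permutation, 160000 assignments, adjusted p = 0.0001875, 0.000375 and 0.000375). By week the Psmb8 ratio differed by 0.91, 1.04, 0.89, 0.11 and 0.85, and the Psmb9 ratio by 1.06, 0.89, 0.69, -0.001 and 0.45. For Psmb10 the differences were 0.70, 0.32, 0.51, 0.25 and 0.24. For Psmb9 and Psmb10 all high-fat arrays exceeded all normal diet arrays at weeks 2 and 8. The constitutive genes themselves were lower on the high-fat diet for Psmb5 (-0.23, SE 0.053, adjusted p = 0.00159) and Psmb6 (-0.10, SE 0.038, adjusted p = 0.0463), while Psmb7 at -0.09 (SE 0.041) did not pass (adjusted p = 0.0964). Without week 24 Psmb5 passed (-0.22, adjusted p = 0.0221) and Psmb6 did not (-0.12, adjusted p = 0.072).

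**Figure D3:**
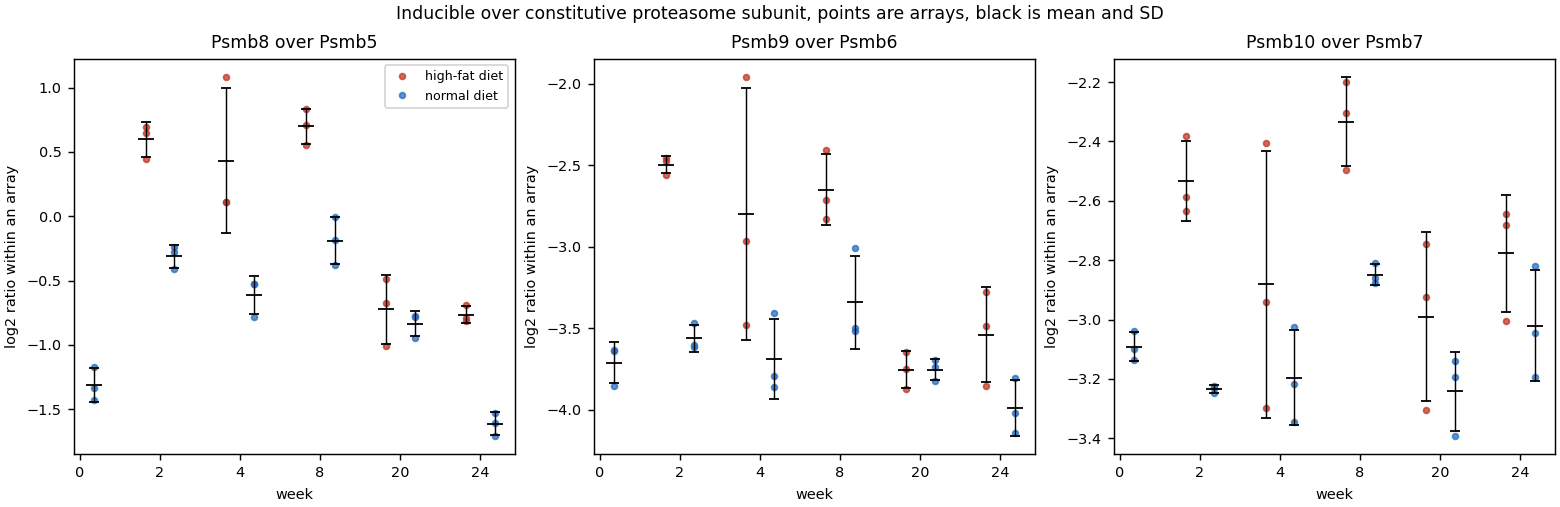
Log2 ratio of each inducible proteasome subunit over the constitutive one it replaces, within each array, by week, with high-fat diet in red left of normal diet in blue and bars for mean and SD (n = 3). The Psmb8 ratio is higher on the high-fat diet without overlap at weeks 2, 4, 8 and 24.

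Class I genes are similar in sequence, and probe sequences were not used here, so each member's other probes served as a check. Of 21 probes 18 passed the detection filter, which gave 8 further probes for 7 members. In a fit of 14776 named probes, 7 of the 8 were above 0 on the diet average and 6 passed. The second B2m probe followed the first (r = 0.95 over 33 arrays, difference 0.35), as did the second Psmb8 probe (r = 0.87, difference 0.50). The second H2-Q6 probe passed at week 2 (0.85, adjusted p = 0.0442), week 4 (1.11, adjusted p = 0.0075) and week 8 (0.96, adjusted p = 0.021). Both further H2-D1 probes passed on average, at 0.30 and 0.35, and the second Psmb10 probe at 0.26.

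H2-K1 and Tapbp were less secure. The second H2-K1 probe correlated with the first at r = 0.14 and averaged 0.24 without passing (adjusted p = 0.0600). It was 0.16 higher at week 24 than at week 2 on the high-fat diet and did not pass (adjusted p = 0.558), where the brighter probe fell by 1.06. The second Tapbp probe averaged -0.08 (adjusted p = 0.615) and was lower at week 24 by 0.58 (adjusted p = 0.0598). Changes towards week 24 differed between probes of a gene elsewhere too. On normal diet at week 24 against week 0, the dimmest H2-D1 probe fell by 1.98 and the brightest by 0.20, and the second Psmb10 probe rose by 0.69 where the brighter one differed by -0.04. The comparisons of week 24 with weeks 0 and 2 therefore hold for the probe named and not for the gene.

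**Figure D4:**
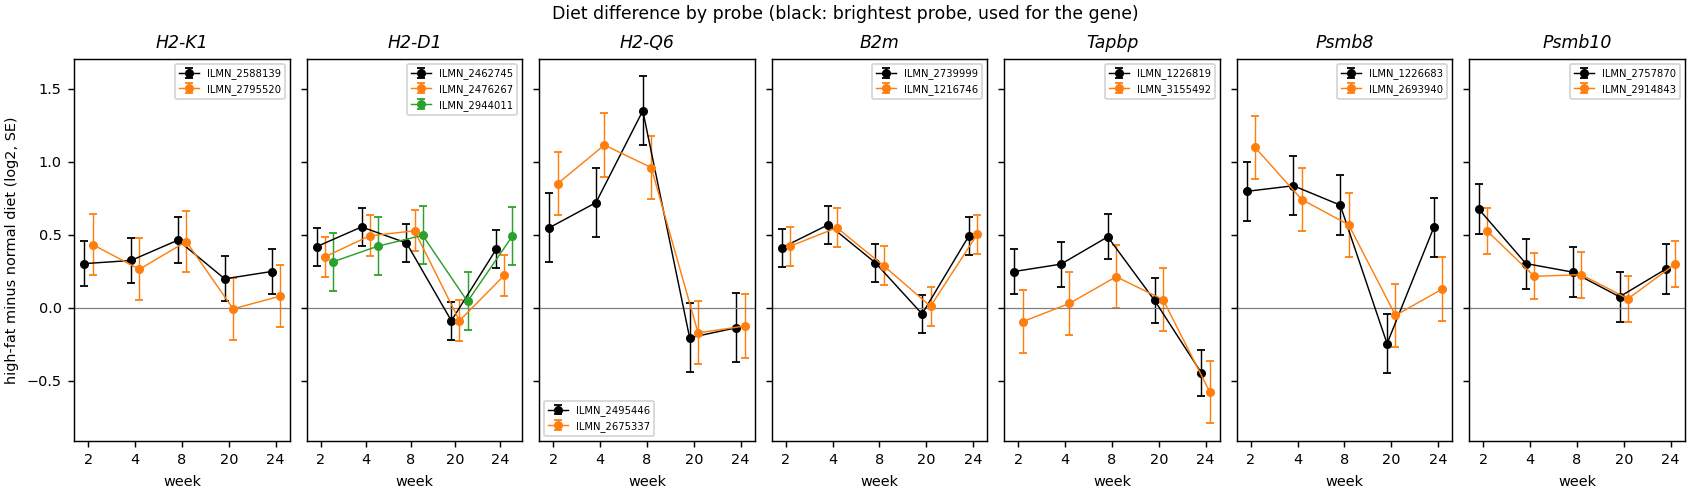
High-fat minus normal diet difference by week for every detected probe of the 7 members with more than 1, in log2 units with standard errors, the brightest probe in black. Probes of H2-K1, H2-D1, H2-Q6, B2m, Psmb8 and Psmb10 are above 0 at weeks 2, 4 and 8. The second Tapbp probe is at -0.10, 0.03 and 0.21 at those weeks.

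Across the 33 arrays, which share groups and normalization, the 45 pairs of members correlated at r of 0.01 to 0.92, with a median of 0.59. The closest pairs were Psmb8 with Psmb9 (r = 0.92), Tap1 with Psmb9 (r = 0.89) and H2-D1 with Psmb8 (r = 0.87). Of these pairs only Tap1 and Psmb9 stand next to each other on chromosome 17. The loosest was H2-K1 with Tap2 (r = 0.01). The genes outside the set most like its mean standardized level were Igtp (r = 0.95), Irgm2 (r = 0.93), Gbp7 (r = 0.93), Gbp2 (r = 0.92) and Gm8909 (r = 0.90). Igtp and Irgm2 encode immunity-related GTPases, and Gbp2 and Gbp7 guanylate-binding proteins, all known as interferon-inducible. Over the 27 arrays without week 24 these 5 values ran from 0.90 to 0.96. The genes were picked on all 33 arrays, which include these 27, so this is no separate check.

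Of the other class I heavy chain genes, 10 of 22 listed were tested and 6 were higher on the diet average, with 0 lower and a median of 0.22. Of all tested genes 15.4% were higher on that average. The 6 included H2-T23 (0.40, SE 0.069), which encodes Qa-1, a ligand of natural killer cell receptors, and H2-M3 (0.43, SE 0.072), which presents formylated peptides. H2-Q5 rose by 0.45 (SE 0.089) and Fcgrt, the neonatal Fc receptor gene, by 0.21 (SE 0.039). H2-T23 passed at week 8 (0.65, adjusted p = 0.0251) and week 24 (0.44, adjusted p = 0.041).

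In other parts of the route no rise passed the test on the diet average. Of the peptide loading and trimming genes, 8 of 13 were tested, with 0 higher and 1 lower, Sec61a1 of the translocation channel (-0.12, SE 0.043, adjusted p = 0.0329), and a median of 0.05. Of the proteasome activator and assembly genes, 8 of 9 were tested and 0 passed in either direction, with a median of -0.08. In that list Psme1 and Psme2, which encode the interferon-inducible activator, averaged -0.13 each (adjusted p = 0.0515 and 0.129), and Psme1 differed by 0.02 at week 2 (adjusted p = 0.968). Whether these lists differ from the 10 members was not tested.

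Genes that act upstream were read next. In the interferon gamma signalling list 12 of 15 genes were tested and 5 were higher on average (15.4% of all genes), with 0 lower and a median of 0.20. Nlrc5, the transactivator of class I genes, averaged 0.69 (SE 0.12, adjusted p = 6.39e-05). Its high-fat arrays ran from 7.01 to 7.50 at week 2, against 5.98 to 6.43 on normal diet, where 1 of 3 arrays detected it. The gap was 1.10 at week 2 (adjusted p = 0.0243), 1.34 at week 4 (adjusted p = 0.00663), -0.26 at week 20 (adjusted p = 0.633) and 0.48 at week 24 (adjusted p = 0.197). Irf1, an interferon-induced transcription factor that acts on class I promoters, ran from 11.37 to 11.59 on the high-fat diet at week 2, against 10.85 to 10.91 on normal diet (0.58, SE 0.13, adjusted p = 0.0199). Later minus earlier differences were below 0 for Nlrc5 (-1.10, adjusted p = 0.0117) and Irf1 (-0.48, adjusted p = 0.0345), which shared their arrays with the members. Without week 24, where week 20 stood alone for the later weeks, neither passed, at -1.48 for Nlrc5 (adjusted p = 0.0862) and -0.59 for Irf1 (adjusted p = 0.141). The average over the other weeks passed for both (0.74 and 0.25, adjusted p = 0.000912 and 0.0147). Socs3, a feedback inhibitor of cytokine signalling, averaged 0.53 (SE 0.091) and Cd274, which encodes PD-L1, 0.36 (SE 0.081). Ifng itself did not pass the detection filter.

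In the type I interferon list 10 of 14 genes were tested and 5 were higher on average (15.4% of all genes), with 0 lower and a median of 0.19. Among them were Ifit3 (0.40, SE 0.063), Stat2 (0.41, SE 0.10) and Irf9 (0.37, SE 0.067). By week the list held 1 gene past the test at week 2 (1.13% of all genes higher), 0 at weeks 4 and 8, 1 at week 20 and 5 at week 24 (12.7% of all genes higher), in each case higher. Without week 24 the diet average gave 4 genes higher in the type I list, 4 in the interferon gamma list and 5 among the other class I heavy chains, against 8.41% of all genes.

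Markers of immune, endothelial and white fat cells moved with the diet as well, and their part in the members' results was not tested. All 9 tested macrophage markers, of 11 listed, were higher on average (15.4% of all genes), with a median of 0.53, and 5 were without week 24 (8.41% of all genes). At week 2 their summed intensity was 2933 to 3798 on the high-fat diet, against 2541 to 2737 on normal diet, and at week 4 it was 3182 to 4435 against 2193 to 2395. At week 8 it was 3139 to 3835 on the high-fat diet and 3395 to 4189 on normal diet. At week 20 the high-fat sum was 5895 to 8368, against 5439 to 5824 on normal diet. At week 24 it was 10065 to 10695 on the high-fat diet, against 3559 to 4436 on normal diet, and all 9 markers passed (12.7% of all genes higher).

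Markers of all leukocytes (3 of 5 tested) summed to 2039 to 2454 on the high-fat diet at week 2, against 1830 to 1841 on normal diet. At week 8 they summed to 2304 to 2698 on the high-fat diet, against 2587 to 3265 on normal diet, and at week 24 to 8696 to 9494 against 2891 to 3105. Lymphocyte markers were mostly below detection. Of the T cell list 2 of 10 genes were tested, and Cd3d, Cd3e, Cd3g, Cd4 and Cd8a did not pass the detection filter. Natural killer cell genes gave 2 of 9 and B cell genes 1 of 7, and none of these 3 lists had a gene past the test on the diet average. All 7 tested MHC class II genes, which antigen-presenting cells express, were higher on average (median 0.40), and 6 were without week 24. Of all genes 15.4% were higher on average, and 8.41% were without week 24. Endothelial markers were higher for 7 of 9 tested (median 0.23, 0 lower), and for 4 without week 24. They summed to 7748 to 8054 on the high-fat diet at week 2, against 7145 to 7257 on normal diet, and to 7375 to 7983 against 5251 to 5941 at week 24. White adipocyte markers were higher for all 4 tested of 5 listed (median 0.79), with and without week 24. They summed to 1552 to 1745 on the high-fat diet at week 2, against 1046 to 1167 on normal diet, and to 10260 to 10578 against 3403 to 4796 at week 24. Skeletal muscle markers summed to 29745 to 59154 on the high-fat diet at week 2, against 19437 to 28908 on normal diet, with 0 of 11 past the test. Of the 8 brown adipocyte markers 0 were higher and 2 lower on the diet average, against 27.1% of all genes past the test in either direction. The 2 were Prdm16 (-0.24, limma adjusted p = 0.0168) and Fabp4 (-0.22, limma adjusted p = 0.0104). Of the dendritic cell list 2 of 7 genes were tested and 0 passed on that average.

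**Figure D5:**
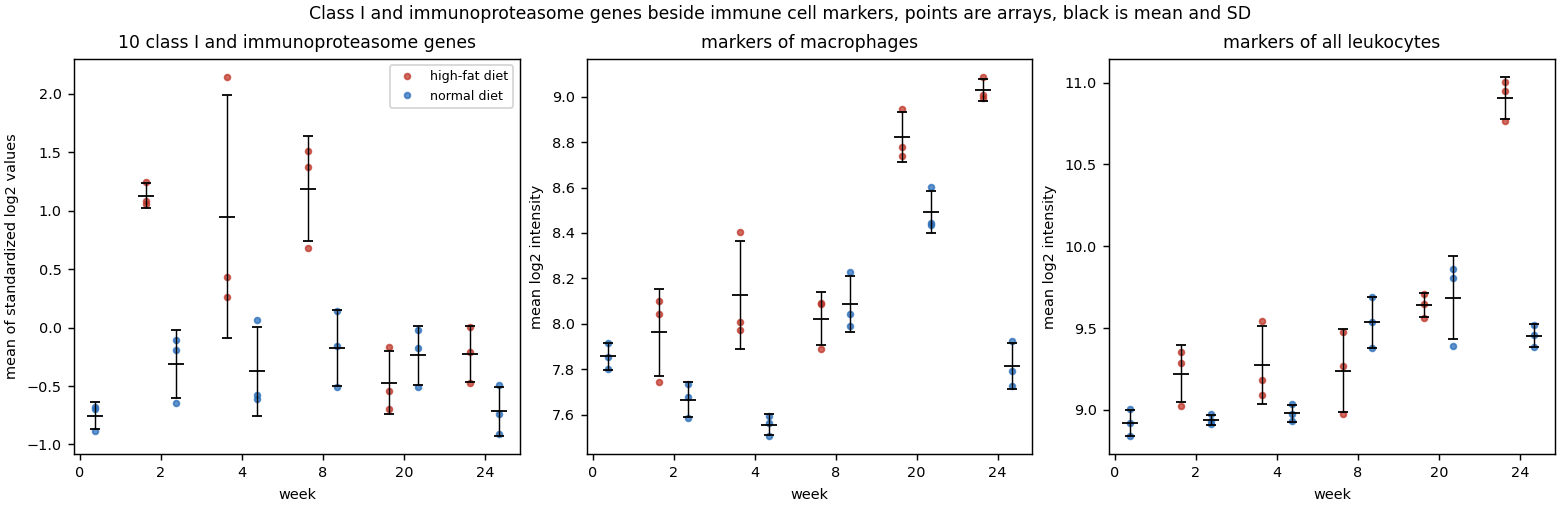
Mean of the 10 members' standardized log2 values (left), and mean log2 intensity of 9 macrophage markers (middle) and 3 markers of all leukocytes (right) on each array, by week, with high-fat diet in red left of normal diet in blue and bars for mean and SD (n = 3). The mean of the members does not overlap between diets at weeks 2, 4, 8 and 24 and overlaps at week 20, and both marker lists separate most at week 24. The gap of that mean at week 24 is narrow (lowest high-fat array -0.47, highest normal diet array -0.49). Taken singly, 1 of 10 members overlaps at week 2, 6 at week 4, 3 at week 8 and 4 at week 24, and 1 is reversed at week 24.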

How the data were processed

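Per the submitters' processing notes BeadStudio 3.1.3 was used, and the authors deposited probe intensities for 33 arrays with a detection p-value beside each. They also deposited log2 values, which rank probes as the intensities do and were used as an alternative. RNA had been purified with Trizol and RNeasy columns and labelled with biotin, per the labels' protocols. Intensities were corrected with neqc of limma 3.58.1 under R 4.3.3 (offset 16, quantile normalization, log2). Probes with a detection p under 0.01 on at least 3 arrays were kept, 17243 of 45281, and 9613 genes were tested. Gene symbols came from the probe annotation, updated for 34807 probes.

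Groups came from the sample titles. A linear model with 11 group means was fitted with limma over all arrays (22 residual and 4.13 prior degrees of freedom), adjusted by Benjamini-Hochberg over 9613 genes at 0.05. Adjusted p-values for further probes are over 14776 probes. Subunit ratios used an exact permutation test. The code was tested on simulated data. Promoter letters were read from RefSeq (GRCm38.p6) with biopython 1.88 and pandas 2.3.3, and figures were drawn with matplotlib 3.10.9. Members and lists were chosen with earlier results of these data known. Named genes were the members, up to 4 genes of each pathway list with the smallest p for the diet average, a few fixed partners (Psmb5, Psmb6, Psmb7, Nlrc5, Irf1, Psme1 and Psme2), and the 5 genes most like the members. Alternatives were another background correction, a median shift, the authors' values, other detection filters, the mean of probes, a replicate block, array weights, a trended robust prior, single weeks, leaving out week 24 and leaving out each array. The average over weeks 2, 4 and 8 alone, and the values without week 24 for lists and genes other than members, were chosen after seeing the data.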

Additional observations from a re-analysis of the deposited data

Results flagged for a closer look

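Diet differences that changed with the week were found for 4 members. For Tap1 the mean difference of weeks 20 and 24 minus that of weeks 2 and 4 was -1.16, with an interaction adjusted p of 0.00588 in limma. At week 20 its 3 high-fat arrays lay below the 3 normal diet arrays (difference -0.357) and above them at weeks 2 and 8. For H2-Q6 the later minus earlier difference was -0.804, with an interaction adjusted p of 0.0117. For Psmb9 it was -0.847, and its high-fat arrays lay below the normal diet arrays at week 20 (difference -0.245) and above them at weeks 2 and 24. For Tapbp the interaction adjusted p was 0.0459, and its high-fat arrays lay below the normal diet arrays at week 24 (difference -0.446) and above them at weeks 4 and 8. The turn of order at a given pair of weeks was not itself tested. None of these calls held without week 24, as the values above show.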

How the results depend on the processing

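Fits that each left out 1 of 33 arrays were run beside 13 other settings. Of 5210 values for single members, 4873 kept their direction and side of the threshold, 189 no longer passed, 119 newly passed and 29 changed sign. The diet average kept 8 to 10 members under every setting and 9 without any 1 array. Tap2 lost its call under a median shift (0.10, adjusted p = 0.304). The 3 ratio differences kept their calls, at 0.695 to 0.793 for Psmb8, 0.534 to 0.686 for Psmb9 and 0.357 to 0.447 for Psmb10 without any 1 array.

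Counts moved by over 1.5 times as follows, and the cause was not tested. No share of all genes is given beside these counts, so they are not read as particular to the members. Week 2 gave 2 with no detection filter. Week 4 gave 0 with a median shift, 6 with array weights and 0 with the arrays of the week alone. Week 8 gave 4 with no background correction, 4 with the authors' values, 4 with a trended robust prior, 5 with array weights and 0 with its own arrays alone. Week 24 gave 1 with a median shift. The later minus earlier count was 1 with a median shift, 1 with no detection filter, 5 with array weights and 0 without week 24, where week 20 stood alone and fewer arrays entered. The interaction count was 6 with a median shift and 0 without week 24, and the count over normal diet weeks was 2 without week 24. Leaving out 1 array gave 1 to 6 at week 2, 0 to 5 at week 4, 1 to 5 at week 8, 0 to 0 at week 20 and 1 to 4 at week 24. It gave 1 to 5 for later minus earlier, 2 to 5 for the interaction, 3 to 7 over normal diet weeks, 7 to 9 over high-fat weeks, 2 to 4 for week 24 against week 0 and 5 to 6 for week 24 against week 2. The labels do not say whether replicate numbers pair the samples. Over all genes same-numbered samples were on average hardly more alike than others (mean r of same-numbered deviations 0.0016, of others -0.0008, with 2 of 15 within-week pairs over 0.1). A mean over all genes cannot show whether a number marks a shared animal, cage or day. With the number as a replicate block the later minus earlier count was 2, with the H2-Q6 call lost (adjusted p = 0.0578), and the others were within 1.5 times.

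A median shift moved the median of all genes to -0.31 at week 8 and to 0.37 for week 24 minus week 2 on the high-fat diet. Where a sign changed, the difference as reported was 0.308 or less in size, except for H2-K1 between weeks. With a median shift the changed signs were B2m (-0.0499) and Psmb10 (-0.121) at week 8, Tapbp (-0.0776) and Psmb10 (-0.0358) at week 20, and H2-Q6 (0.0136) and Tap1 (0.0736) at week 24. For week 24 against week 0 the median shift gave 0.0159 for H2-D1 and 0.0566 for Psmb10, and against week 2 it gave 0.138 for H2-D1, 0.139 for Tap2 and 0.168 for Psmb10. The mean of probes gave 0.327 and 0.168 for Psmb10 in these comparisons. Week 20 in place of week 24 gave 0.283 (H2-K1), 0.0139 (H2-D1) and -0.261 (Tap2) on normal diet, and 0.304 (H2-K1) and -0.107 (B2m) on the high-fat diet. Without 1 array, week 20 ranged from -0.224 to 0.0065 for H2-D1, -0.488 to 0.0187 for H2-Q6, -0.0857 to 0.0048 for B2m, -0.131 to 0.178 for Tapbp and -0.0278 to 0.175 for Psmb10, and week 24 from -0.184 to 0.0203 for Tap1. H2-K1 later minus earlier ranged from -0.168 to 0.01, week 24 against week 0 from -0.0161 to 0.2003 for Tap2 and -0.128 to 0.0768 for Psmb10, and week 24 against week 2 from -0.0439 to 0.0634 for B2m.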
